A study of Mus musculus with 6 samples.

Results

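The proteasome is the barrel-shaped protease that degrades ubiquitin-tagged proteins, and 42 genes of its subunits were followed in splenic regulatory T cells (Tregs) of 2 kinds of NOD mice. The genes were taken from the array by symbol: 44 genes had a symbol of the form Psma, Psmb, Psmc, Psmd or Psme followed by a digit, on a probe set annotated to that gene alone. Of these, Psmc3ip and Psme3ip1 encode partners of a subunit and no subunit, so 42 of the 18193 genes measured remained, on 88 probe sets, and each was read from its probe set with the highest mean. They comprised 8 alpha ring genes, 3 standard catalytic beta subunits, 3 immunoproteasome subunits, 5 other beta subunits, 6 ATPases and 11 further subunits of the regulatory particle, 3 assembly chaperones that carry a Psmd name, and 3 activators. The probe set of Psme2 is also annotated to Psme2b and was not used.

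The treated group held 3 NOD mice of genotype RAG1o/o, which lack RAG1 and received the anti-CD3 antibody clone KT3 into a vein daily for 5 days, starting at 17 days of age, with a dose of 37.5 µg. The untreated group held 3 NOD mice of genotype RAG1+/o, heterozygous for the null allele, without injections. All 6 mice were female, carried the BDC2.5 TCR tg, a transgenic T cell receptor, and Foxp3GFP, a reporter of Foxp3, and were 28 or 29 days old. The labels give 11 or 12 days after treatment for the treated mice, which by their ages counts from the first injection. CD4+ GFP+ cells negative for B220, CD8a and CD11b/c were sorted from the spleen, and each array held the RNA of 1 mouse. Antibody and RAG1 genotype changed together, so their parts in a difference cannot be told apart.

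The core of the proteasome is a stack of rings: alpha subunits form the outer rings and gate the channel, and beta subunits form the inner rings that hold the cutting sites. In lymphocytes, and in other cells under interferon-gamma, the catalytic subunits Psmb6, Psmb7 and Psmb5 can be replaced by Psmb9, Psmb10 and Psmb8, which gives the immunoproteasome and a different set of peptides for display on MHC class I. A regulatory particle of ATPases, which unfold substrates, and of ubiquitin-binding and ubiquitin-removing subunits sits on the core, and activators can take its place.

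Values are log2 RMA intensities given for replicates 1, 2 and 3 of a group in that order, and differences are treated minus untreated with their 95% intervals. Foxp3, whose reporter was sorted on, Cd4 and the T cell gene Cd3e were read as checks. Foxp3 measured 11.43, 11.46 and 12.44 in treated and 10.75, 9.95 and 11.07 in untreated samples. Cd4 measured 9.77, 9.89 and 10.41 against 9.86, 9.10 and 10.01 (+0.37), with overlapping groups. Cd3e measured 11.97, 12.02 and 12.16 against 11.82, 11.62 and 11.78. Foxp3 differed by +1.19 (interval 0.30 to 2.08, unadjusted p = 0.0161, limma adjusted p = 0.914) and did not pass the test. Over 9 T cell and Treg genes the mean was 11.44, 11.42 and 12.00 in treated samples. In untreated samples it was 11.26, 10.60 and 11.79, lowest in replicate 2. Of the 9 genes, 8 had a difference above 0 and 1 below (median +0.37). Rag1 measured 6.68, 5.23 and 4.93 in treated and 7.61, 7.30 and 5.47 in untreated samples, and where its probe set lies relative to the deleted part is not known here. B cell markers, which the sort should have removed, set the untreated samples apart from one another. The mean over 14 of them was 7.17, 7.09 and 7.09 in treated samples, against 9.87, 9.86 and 7.53 in untreated samples, and all 14 had a difference below 0. The mean over 19 myeloid markers was 9.58, 8.60 and 9.33 in treated and 9.12, 8.96 and 6.88 in untreated samples, lowest in untreated replicate 3. Of these markers 18 had a difference above 0 and 1 below (median +0.77). All 8 plasma cell genes had a difference below 0 (median −0.41). Over 8 erythroid and platelet genes the mean was 8.48, 8.11 and 8.03 in treated and 8.40, 8.80 and 6.91 in untreated samples. Of 10 CD8, NK and cytotoxic genes 4 had a difference above 0 and 6 below. Of 19 cell cycle genes 18 had a difference below 0 (median −0.59). The part of the T cell share, of these other cells and of cell division in the values below was not tested. In bulk samples fewer cells of a type and less RNA per cell cannot be told apart.

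No proteasome subunit passed the test between treated and untreated Tregs. Of the 42 subunits, 20 had a difference above 0 and 22 below, where 58.5% of all genes lay above 0 and 41.5% below. Their median was −0.040, against +0.052 over all genes tested. By mean level the subunits stood high, at a median percentile of 90.2 of all genes. Among the other genes above the median level, 50.2% had a difference above 0, with a median of +0.0012. By limma with Benjamini-Hochberg adjustment over all 18193 genes, 0 subunits passed an adjusted p of 0.05, where 0% of all genes did, and the smallest adjusted p of a subunit was 0.914. At an unadjusted p under 0.05, 0 subunits were higher and 0 lower, where 1.82% of all genes were higher and 3.17% lower. All treated values lay above all untreated ones for Psma5 and Psmd9, 2 of 42 subunits where 5.61% of all genes did so, and below them for 0 subunits, where 5.24% did.

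The precision of the comparison differed between subunits. For 29 of the 42 subunits the 95% interval lay within a 2-fold change in either direction, and for 8 within a 1.5-fold change, where the intervals of 75.2% and 31.3% of all genes did. Leaving out 1 array at a time turned the sign of 19 of the 42 differences, and for 41 of the 42 at least 1 left-out array turned the sign or moved the difference by over 1.5 times. These counts are not given here for all genes, so they do not set the subunits apart from other genes. The intervals were tightest for Psma5, an alpha ring gene with 11.61, 11.64 and 11.60 in treated and 11.56, 11.47 and 11.54 in untreated samples (+0.10, interval −0.24 to 0.43). Psmd14, the subunit that cuts ubiquitin chains off substrates, had an interval of −0.47 to 0.25 around −0.11, and Psmb11, a beta subunit of thymic epithelium, one of −0.31 to 0.41 around +0.052. At the other end stood the ATPase Psmc5 with an interval of −1.46 to 1.18, so that a 2-fold change in either direction could not be told from 0 with 3 arrays per group. The median half-width was 0.64 for the subunits and 0.51 for all genes. The mean SD within groups was 0.39 for the subunits, 0.34 for all genes and 0.41 for genes above the median level.

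**Figure D1:**
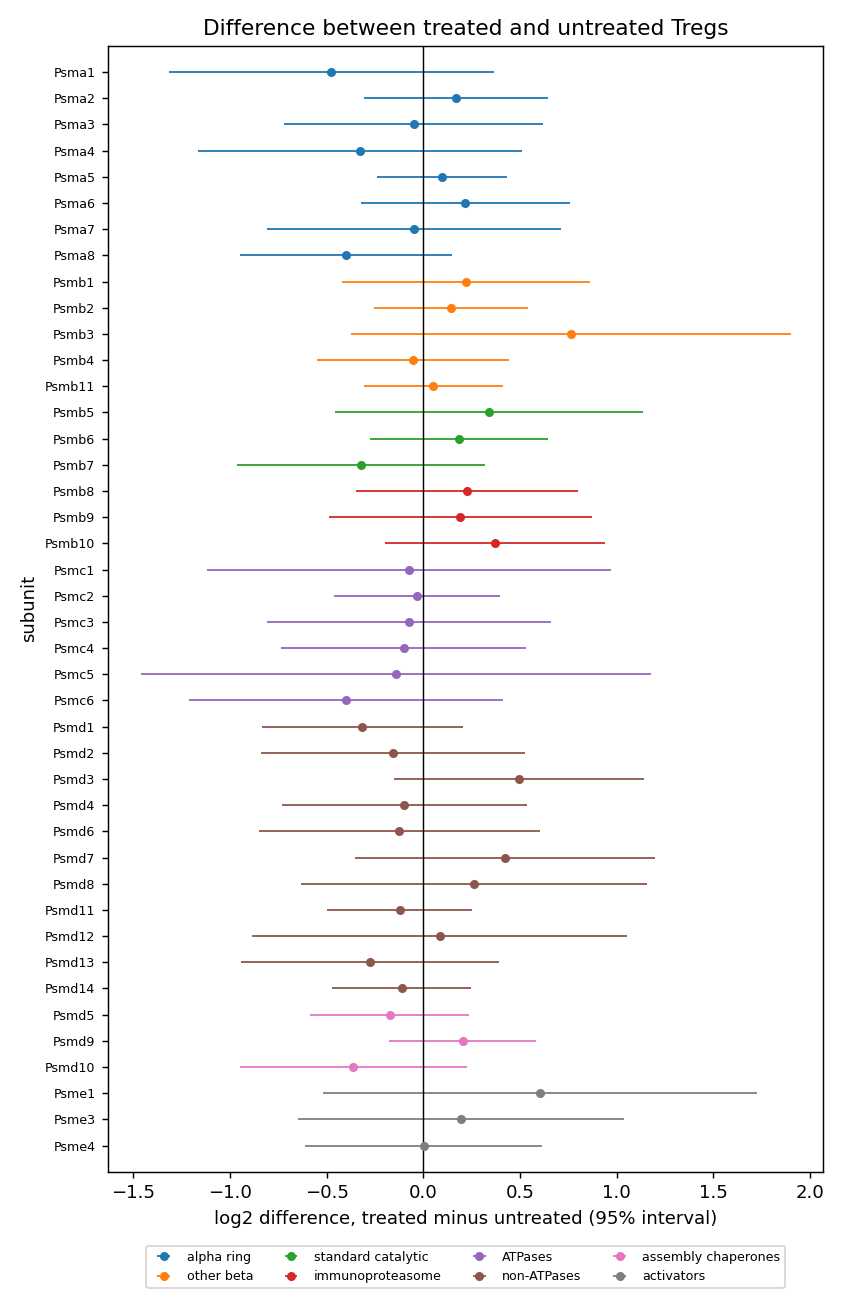
Log2 difference of each of the 42 subunits, treated minus untreated, as points with 95% intervals from limma (n = 3 arrays per group), coloured by class. Every interval crosses 0; Psmb3 lies farthest to the right at +0.76 and Psma1 farthest to the left at −0.48.

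The 3 catalytic sites of the core were compared as pairs of a standard subunit and its immunoproteasome counterpart. Psmb8, the counterpart of Psmb5 in the immunoproteasome, measured 11.73, 11.98 and 11.95 in treated and 11.92, 11.15 and 11.91 in untreated Tregs (+0.23, interval −0.35 to 0.80, limma adjusted p = 0.924). Psmb9, the counterpart of Psmb6, measured 10.64, 10.97 and 10.83 in treated and 10.74, 10.01 and 11.11 in untreated Tregs (+0.19, interval −0.49 to 0.87, adjusted p = 0.936). Psmb10, the counterpart of Psmb7, measured 9.96, 10.43 and 10.44 in treated and 9.97, 9.51 and 10.23 in untreated Tregs (+0.37, interval −0.20 to 0.94, adjusted p = 0.914). In all 3 immunoproteasome genes untreated replicate 2 was the lowest of the 6 arrays, and the groups overlapped. Without that array the differences were −0.029 for Psmb8, −0.11 for Psmb9 and +0.17 for Psmb10, so the direction of the first 2 rested on 1 untreated mouse.

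The standard catalytic subunits went both ways. Psmb5, which cuts after hydrophobic residues, measured 11.65, 11.14 and 11.31 in treated and 11.69, 10.37 and 11.02 in untreated Tregs (+0.34, interval −0.46 to 1.14). Psmb6, which cuts after acidic residues, measured 10.68, 10.58 and 10.74 in treated and 10.80, 10.20 and 10.44 in untreated Tregs (+0.18, interval −0.27 to 0.64). Psmb7, which cuts after basic residues, measured 10.68, 10.09 and 11.01 in treated and 11.22, 10.80 and 10.72 in untreated Tregs (−0.32, interval −0.96 to 0.32). None of the 3 passed the test and the groups overlapped in each, with Psmb5 and Psmb6 again lowest in untreated replicate 2 and Psmb7 lowest in treated replicate 2. Without untreated replicate 2, Psmb5 differed by +0.0096 and Psmb6 by +0.045, and without treated replicate 2 Psmb7 differed by −0.072.

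The median difference was +0.23 for the immunoproteasome genes and +0.18 for their standard partners. With array weights the medians were +0.044 and +0.088, with Psmb8 at +0.041 and Psmb9 at +0.044, and without untreated replicate 2 they were −0.029 and +0.0096. The shift of each pair was taken within arrays, as the log2 ratio of the immunoproteasome gene to its partner set to a mean of 0 over the untreated arrays. For Psmb8 over Psmb5 it was −0.56, 0.21 and 0.0045 in treated samples, against −0.41, 0.15 and 0.26 in untreated ones. For Psmb9 over Psmb6 it was −0.18, 0.25 and −0.041 against −0.20, −0.33 and 0.53. For Psmb10 over Psmb7 it was 0.30, 1.35 and 0.44 against −0.24, −0.28 and 0.52. The groups overlapped in all 3 pairs, and the mean shift of the Psmb10 pair (+0.69) was +0.37 without treated replicate 2, its highest array. The other pairs shifted by −0.11 and 0.0080, less than the SD between arrays of a group.

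**Figure D2:**
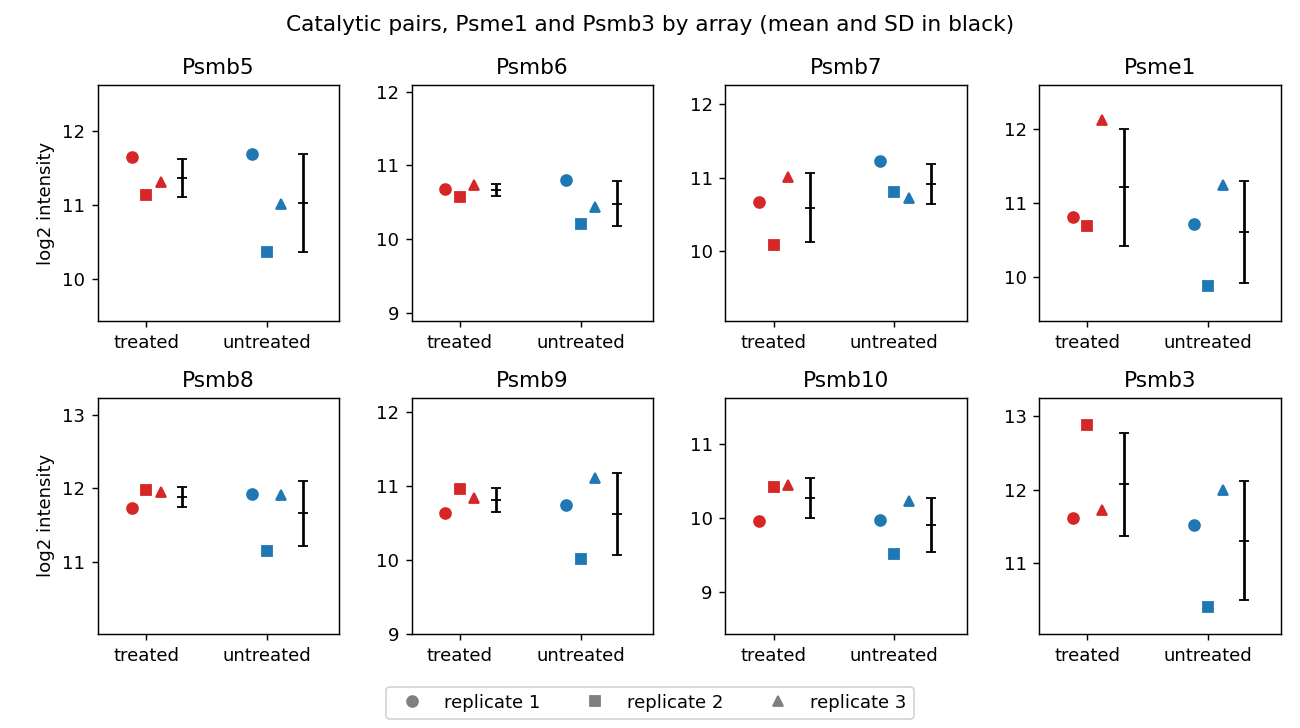
Log2 intensity on each array for the 3 standard catalytic subunits (top row) above their immunoproteasome counterparts, and for Psme1 and Psmb3. Treated arrays are red and stand left of untreated arrays in blue, the marker shape gives the replicate number, and black bars are the mean ± SD (n = 3). The square of untreated replicate 2 is the lowest point in every panel except that of Psmb7.

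The differences farthest from 0 belonged to Psmb3 and Psme1. Psmb3, a beta ring subunit without a cutting site, measured 11.61, 12.87 and 11.73 in treated and 11.53, 10.41 and 11.99 in untreated Tregs (+0.76, interval −0.38 to 1.90, limma adjusted p = 0.914). Its highest and lowest values were the arrays numbered 2 of the treated and the untreated group. Without both of these arrays it differed by −0.087, and its other probe set by −0.17 over all arrays. Psme1, a subunit of the interferon-inducible activator that caps the core, measured 10.81, 10.70 and 12.13 in treated and 10.72, 9.88 and 11.24 in untreated Tregs (+0.60, interval −0.52 to 1.72, adjusted p = 0.914). Treated replicate 3 was the highest and untreated replicate 2 the lowest, and without treated replicate 3 the difference was +0.14. By the ratio of linear group means 2 subunits were past 1.5-fold as higher in treated Tregs, Psmb3 at 1.68-fold and Psme1 at 1.57-fold, where 3.46% of all genes were, and 0 as lower, where 4.84% were.

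Promoter sequences are shown for Psmb3 and Psme1, whose differences lay farthest above 0, and for Psmb9 and Psmb6, the immunoproteasome and standard subunits of 1 catalytic site. They run 5′ to 3′ from 250 bases before to 50 bases after a start, that of the first promoter entry listed for the gene. The entries are from RefSeq on build GRCm38.p6: Psmb3 at chr11:97703184-97703483, forward strand, Psme1 at chr14:55578244-55578543, forward strand, Psmb9 at chr17:34187281-34187580, reverse strand, and Psmb6 at chr11:70525107-70525406, forward strand. For Psmb6 the start used lies inside the gene, whose first base is at 70525324. Capitals mark matches, on either strand, to CCAAT (bound by the factor NF-Y), to the interferon-stimulated response element searched as GAAA and GAAA with any 2 bases between them, to the gamma-activated site searched as TTCNNNGAA and to the antioxidant response element searched as TGANNNNGC.
Psmb3: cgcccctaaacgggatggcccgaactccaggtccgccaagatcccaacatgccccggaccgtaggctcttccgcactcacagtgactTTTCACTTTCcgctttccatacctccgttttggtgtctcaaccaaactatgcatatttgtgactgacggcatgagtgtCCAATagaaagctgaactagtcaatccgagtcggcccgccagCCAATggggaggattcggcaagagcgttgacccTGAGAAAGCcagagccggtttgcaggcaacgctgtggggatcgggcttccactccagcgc
Psme1: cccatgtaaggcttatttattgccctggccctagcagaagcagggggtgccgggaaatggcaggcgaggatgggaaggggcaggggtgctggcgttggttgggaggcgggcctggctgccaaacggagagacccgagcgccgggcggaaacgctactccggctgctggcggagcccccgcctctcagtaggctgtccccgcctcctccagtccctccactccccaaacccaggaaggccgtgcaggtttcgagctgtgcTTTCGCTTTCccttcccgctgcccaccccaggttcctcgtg
Psmb9: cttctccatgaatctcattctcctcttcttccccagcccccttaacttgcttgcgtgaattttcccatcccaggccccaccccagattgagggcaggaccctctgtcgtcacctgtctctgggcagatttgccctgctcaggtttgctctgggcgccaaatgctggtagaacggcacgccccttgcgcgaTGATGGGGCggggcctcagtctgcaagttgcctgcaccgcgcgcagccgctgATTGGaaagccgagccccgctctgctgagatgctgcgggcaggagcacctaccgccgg
Psmb6: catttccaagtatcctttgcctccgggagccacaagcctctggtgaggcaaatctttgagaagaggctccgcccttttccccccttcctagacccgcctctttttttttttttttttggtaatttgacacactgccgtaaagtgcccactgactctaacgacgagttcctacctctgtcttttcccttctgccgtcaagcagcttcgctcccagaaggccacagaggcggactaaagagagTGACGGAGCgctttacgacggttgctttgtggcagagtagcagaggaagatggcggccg
Psmb3 holds 2 CCAAT matches, 1 interferon element and 1 antioxidant element, and Psme1 holds 1 interferon element 10 bases after its start. In Psmb9 the matches are 1 CCAAT on the opposite strand and 1 antioxidant element, and in Psmb6 a single antioxidant element. RefSeq promoters were found for 35 of the 42 subunits, and in none of the 35 did matches of different motifs overlap. CCAAT was present in 14 of them (40%, against 37.9% of the promoters of all 27025 genes in the table) and the antioxidant element in 19 (54.3% against 41.4%). The interferon element was present in 4, those of Psmb3, Psmd4, Psmd9 and Psme1 (11.4% against 3.49%), and the gamma-activated site in 2, those of Psmb8 and Psmd2 (5.71% against 8.47%). The matches are described as letters in these windows only.

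The remaining core subunits went in both directions. In the alpha ring 3 of 8 genes had a difference above 0 and 5 below (median −0.048). Psma1 measured 11.31, 10.01 and 11.27 in treated and 11.51, 11.20 and 11.32 in untreated Tregs (−0.48, interval −1.32 to 0.36). Treated replicate 2 alone stood low, more than 1 log2 unit below the other 5 arrays, and without it Psma1 differed by −0.048. Its 3 further probe sets were at +0.14, −0.17 and +0.13, and the mean over its probe sets at −0.093. Psma4 measured 9.82, 9.19 and 10.38 against 10.02, 9.72 and 10.64 (−0.33) and Psma6 12.64, 12.51 and 13.08 against 12.57, 12.21 and 12.80 (+0.22), both with overlapping groups. Psma4 differed by −0.026 without treated replicate 2 and Psma6 by +0.047 without treated replicate 3. Psma8, which replaces an alpha subunit in testis, measured 5.52, 5.31 and 5.42 in treated and 6.01, 6.11 and 5.34 in untreated samples (−0.40, unadjusted p = 0.129). By mean level Psma8 stood low, at percentile 21.9 of all genes. Its 2 highest values came from untreated replicates 1 and 2, the samples with the highest B cell marker means, and a link between the 2 was not tested. Psma2, Psma3 and Psma7 differed by +0.17, −0.049 and −0.048.

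Among the other beta subunits 4 of 5 had a difference above 0 and 1 below. Psmb1 measured 12.12, 11.81 and 12.04 in treated and 12.20, 11.19 and 11.91 in untreated Tregs (+0.22), and without its lowest array, untreated replicate 2, it differed by −0.066. Psmb2 measured 9.41, 9.53 and 9.56 against 9.22, 9.27 and 9.59 (+0.14, interval −0.25 to 0.54), with overlapping groups. Psmb4 differed by −0.055. Psmb11, which forms the thymoproteasome of thymic cortical epithelium and has no known role in peripheral T cells, measured 6.25, 6.48 and 6.28 against 6.20, 6.30 and 6.35 (+0.052, interval −0.31 to 0.41), with overlapping groups.

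In the regulatory particle 4 of 17 subunits had a difference above 0 and 13 below, with a median of −0.10. All 6 ATPases lay below 0, but by little: their median was −0.088, the range ran from −0.40 to −0.031, and 0 passed the test. With quantile normalization Psmc1, Psmc2 and Psmc3 lay above 0, at +0.0068, +0.019 and +0.036. Psmc2, at −0.031 on the probe set used, was at −0.33 and −0.45 on its others, and the mean over its probe sets at −0.27. The further probe sets of Psmc1 and Psmc4 were at +0.32 and +0.0092. Psmc6 measured 10.67, 9.43 and 10.41 in treated and 10.93, 10.50 and 10.28 in untreated Tregs, and without its lowest array, treated replicate 2, it differed by −0.034. Its 2 further probe sets were at −0.54 and −0.82. Psmc5 measured 9.68, 8.17 and 10.47 against 9.87, 9.05 and 9.82, with the lowest and the highest of the 6 values both among treated mice. Without treated replicate 2 its difference was +0.49 in place of −0.14. Psmc4 measured 9.79, 9.72 and 10.65 against 10.03, 10.14 and 10.29 (−0.10) and Psmc3 10.43, 9.99 and 10.68 against 10.48, 9.88 and 10.96 (−0.073), and they differed by +0.062 and +0.12 without that array. Psmc1 differed by −0.074, and by +0.34 without it. Leaving out that 1 treated mouse thus put 4 of the 6 ATPases above 0.

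Of the 11 non-ATPase subunits, 4 had a difference above 0 and 7 below (median −0.11). Psmd3, a subunit of the lid that covers the ATPases, had the smallest unadjusted p of all 42 genes, 0.113: it measured 8.67, 8.37 and 9.20 in treated and 8.59, 7.89 and 8.27 in untreated Tregs (+0.50, interval −0.15 to 1.14, limma adjusted p = 0.914). The groups overlapped through treated replicate 2 and untreated replicate 1, and without treated replicate 3 the difference was +0.27. Psmd7, the lid partner of Psmd14, measured 7.73, 7.80 and 7.22 against 7.80, 6.58 and 7.11 (+0.42). Untreated replicate 2 was its lowest array, and without it Psmd7 differed by +0.13. Its further probe sets were at −0.32 and +0.25, and the mean over its probe sets at +0.12. Psmd1, a scaffold of the base, measured 11.02, 10.75 and 10.66 against 11.17, 11.45 and 10.76 (−0.31), and Psmd13, another lid subunit, 9.88, 9.79 and 9.03 against 10.10, 9.48 and 9.96 (−0.28). Treated replicate 3 was the lowest array of Psmd13, and without it the gene differed by −0.0089. The ubiquitin receptor Psmd4 differed by −0.10, the scaffold Psmd2 by −0.16, Psmd6 by −0.12, Psmd8 by +0.26, Psmd11 by −0.12 and Psmd12 by +0.084.

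Of the 3 chaperones that help the ATPase ring to assemble, 1 had a difference above 0 and 2 below. Psmd9 measured 7.59, 7.58 and 7.81 in treated and 7.57, 7.31 and 7.48 in untreated Tregs (+0.20, interval −0.18 to 0.58). All treated values lay above the untreated ones, with treated replicate 2 close to untreated replicate 1. Psmd10, also known as gankyrin, measured 8.74, 8.58 and 8.23 against 8.92, 8.46 and 9.25 (−0.36), and Psmd5 8.67, 8.43 and 8.77 against 8.67, 8.74 and 8.99 (−0.17). The groups overlapped for both of these genes. Of the other activators, Psme3, which caps proteasomes in the nucleus, measured 7.93, 7.20 and 8.50 against 8.04, 7.25 and 7.76 (+0.19) and Psme4 10.83, 9.95 and 10.63 against 10.70, 10.39 and 10.31 (0.0027). Neither passed the test. The further probe sets of Psme3 were at −0.23 and −0.15, opposite in sign to the one used. The 5 further probe sets of Psme4 ran from −0.69 to 0.28.

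Within both groups the array numbered 2 was often the lowest in these genes, a pattern seen after the values were examined and given as a description. In treated Tregs 28 of the 42 subunits were lowest in replicate 2, and in untreated Tregs 30 of 42 were lowest in replicate 2, against 35.3% and 33.7% of all genes. Genes above the median level, to which most subunits belong, were lowest there in 51.5% and 40.7% of cases. The mean over all subunits was 10.32, 10.04 and 10.50 in treated and 10.40, 9.96 and 10.43 in untreated samples. The 2 arrays were not low in the same subunits throughout: 21 were lowest in both, where 15.0% of all genes and 23.9% of those above the median level were. Psmc5 lay −1.90 from the mean of the other treated arrays on treated replicate 2, Psma1 −1.29 and Psmc1 −1.25. On treated replicate 2, 12 of the 42 subunits lay above the mean of the other treated arrays, among them 4 of the 5 other beta subunits, Psmb3 farthest, and all 3 immunoproteasome genes. Psmb8, Psmb9 and Psmb10 lay +0.14, +0.23 and +0.22 from that mean. On untreated replicate 2 these 3 lay on the low side with most other subunits, at −0.76, −0.91 and −0.59.

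Treated replicate 2 also had the narrowest spread of log2 values over all probe sets, an SD of 2.0 against 2.15 to 2.21 on the other arrays, and quantile normalization removes such a gap. With it, 20 subunits were lowest in treated replicate 2 and 29 in untreated replicate 2, where 33.6% and 33.9% of all genes were, and 14 were lowest in both, where 13.1% were. The difference between the 3′ and 5′ probe sets of Gapdh, a measure of RNA length, was 3.38, 3.65 and 4.10 in treated and 3.23, 3.87 and 2.02 in untreated replicates. For actin the difference was 1.42, 1.94 and 3.62 in treated and 1.31, 1.95 and 0.92 in untreated replicates. Untreated replicate 2 had the largest gap of its group for both genes, and treated replicate 2 lay between the others of its group. The part of these measures in the array pattern was not tested. Without both arrays numbered 2 the median difference of the subunits was −0.017 and 0 subunits had an unadjusted p under 0.05.

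**Figure D3:**
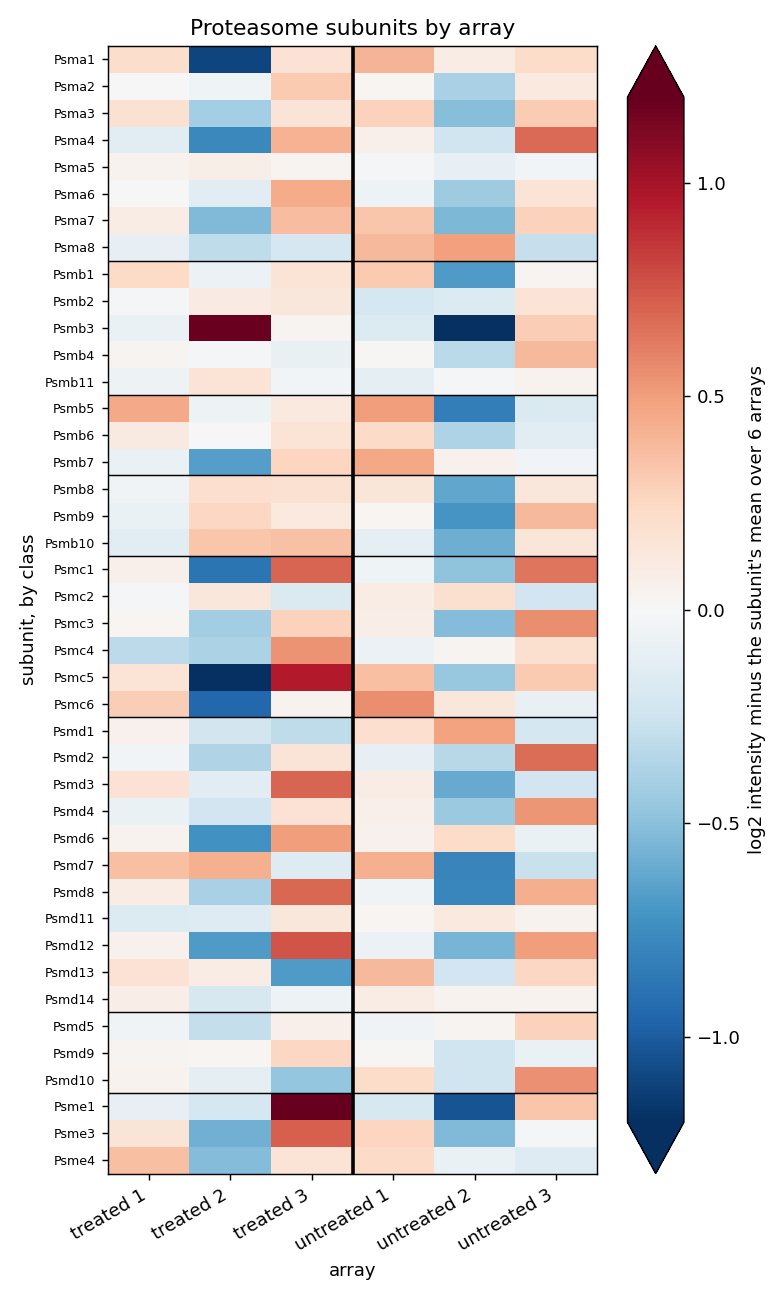
Log2 intensity of each subunit on each array minus the mean of that subunit over the 6 arrays, with treated arrays left of the black line and untreated arrays right of it, and horizontal lines between classes. Blue marks values below the mean: the column of untreated replicate 2 is blue for 31 of 42 subunits, and that of treated replicate 2 for 30 of 42. The 12 subunits not below their mean on treated replicate 2 come from 7 classes and include Psmb3, Psma5, Psmc2, Psmd13 and the 3 immunoproteasome genes.

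**Figure D4:**
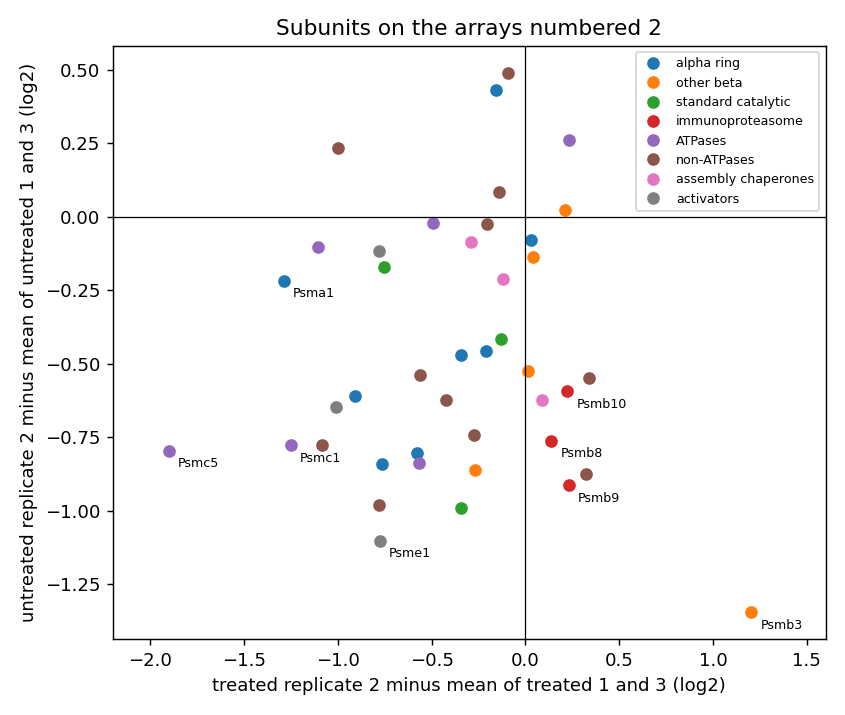
Each point is a subunit, placed by its log2 value on treated replicate 2 minus the mean of treated replicates 1 and 3 (x axis) and on untreated replicate 2 minus the mean of untreated replicates 1 and 3 (y axis). On the y axis 36 of 42 subunits lie below 0 and on the x axis 30 of 42, and the other 12 on the x axis lie to the right of 0, with Psmb3 farthest out.

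No scan or processing dates are given. The file numbers in the labels are close together for replicates 1 and 2 of both groups and higher for replicate 3 of both, and these were treated as 2 array runs, the second with 1 array per group. Whether they were separate runs is not known here. The median difference of the subunits was +0.025 within the first such run and +0.083 within the second, and 20 of the 42 subunits kept 1 sign in both. For the immunoproteasome genes the median was +0.43 and +0.041, and for their standard partners +0.13 and +0.29. Psmb3 differed by +1.28 in the first run and −0.26 in the second, Psme1 by +0.46 in the first run and +0.89 in the second, and Psmd3 by +0.28 in the first run and +0.93 in the second. Of the 22 subunits with over 1 probe set, 14 had a probe set of the opposite sign. The counts of signs over runs and probe sets are not given here for all genes, and no trait of the subunits is read from them.

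Genes that build, supply and control the proteasome were likewise not called: 0 passed the adjusted p of 0.05 in either direction in each of the lists below. Of 7 assembly factors 2 had a difference above 0 and 5 below (median −0.12). Psmg1 and Psmg2, the pair on which the alpha ring is built, differed by −0.36 and −0.47, Psmg3 by +0.21, and Pomp, which matures the core and is needed for the immunoproteasome, by −0.19. Of the 3 further subunits and deubiquitinases measured, Sem1, a small lid subunit, differed by +0.54, and the deubiquitinases Uchl5 and Usp14 by −0.69 and −0.29. Of 8 genes that bring substrates to the proteasome, 3 lay above 0 and 5 below (median −0.21). The shuttle gene Rad23b measured 10.63, 10.03 and 9.45 in treated and 11.05, 11.31 and 10.17 in untreated Tregs (−0.81), and Ubqln4 8.22, 8.26 and 9.71 against 8.10, 8.01 and 7.64 (+0.81). Nploc4 and Ufd1, cofactors of the segregase Vcp, differed by +0.23 and −0.34. The ubiquitin-activating enzyme gene Uba6, the 1 gene of its list measured under a single symbol, differed by −0.27.

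Of 8 genes of proteasome transcription and control 3 had a difference above 0 and 5 below (median −0.15), and 1 had an unadjusted p under 0.05. This was Nfyb, a subunit of the CCAAT-binding factor NF-Y, at 10.10, 9.97 and 10.08 in treated and 10.38, 10.98 and 10.97 in untreated Tregs (−0.73, interval −1.21 to −0.24, unadjusted p = 0.00918, limma adjusted p = 0.914). All treated values lay below all untreated ones. The other NF-Y subunits, Nfya and Nfyc, differed by −0.22 and +0.24, and Nfe2l2, the antioxidant response factor, by −0.50.

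Of 13 class I antigen processing genes 4 had a difference above 0 and 9 below (median −0.10). Nlrc5, the transactivator of MHC class I genes, measured 9.54, 10.28 and 10.96 in treated and 9.08, 8.80 and 9.43 in untreated Tregs (+1.16, interval 0.30 to 2.02, unadjusted p = 0.0152, limma adjusted p = 0.914). Its lowest treated value exceeded its highest untreated one. The chaperone genes Canx and Pdia3 differed by −0.45 and −0.84, and the peptidase gene Tpp2 by −0.41. Tap1, which encodes a peptide transporter and lies beside Psmb9, was singled out after its values were seen: it measured 9.36, 9.89 and 10.26 against 9.35, 8.87 and 9.98 (+0.44), with untreated replicate 2 lowest as in Psmb9. Of 30 interferon signalling and response genes 14 had a difference above 0 and 16 below (median −0.0094). Ifit3, Rtp4 and Usp18, which interferon induces, differed by −0.93, −0.53 and −0.84, and the kinase gene Tyk2 by +0.45, each with groups that did not overlap and an unadjusted p under 0.05 but a limma adjusted p of 0.863 or more.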

How the data were processed

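RNA of 6 mice was hybridised to Affymetrix M430v2 arrays, 1 mouse on each. Per the labels' protocols the RNA was isolated with Trizol and amplified in 2 rounds. The series' design text states RMA in GenePattern as the authors' processing, with its version not given in the sources used here, and the deposited values are intensity values on a linear scale, 5.47 to 29584.9. Arrays had median intensities of 85.3 to 92.4 and SDs of log2 values of 2.0 to 2.21, so their distributions were alike but not identical. The number of arrays limits the precision.

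Here log2 was taken with no further normalization. Tests excluded the 64 control probe sets. Symbols came from the platform annotation, updated by gene identifier against RefSeq, which matched 34741 of the 34945 probe sets with 1 symbol; probe sets with several symbols (932) or none (9160) named no gene. All 45037 other probe sets, named or not, were fitted with limma 3.58.1 in R 4.3.3 (lmFit, eBayes), with p-values adjusted by Benjamini-Hochberg over 18193 genes, 1 probe set each, and a threshold of 0.05. The fit was tested on simulated data with independent normal noise of equal SD on all probe sets. The subunits differed in their spread, so the simulation does not give the power for them. Figures used matplotlib 3.10.9 in Python 3.11.15.

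The members, lists and tests were chosen with earlier results of these data known. Values on every array are given for the catalytic pairs, Psme1 and, in each other class, up to 4 subunits with the smallest p; of each pathway list up to 4 genes with the smallest p are named. The other subunits are accounted for by their differences, while Psma5, Psmd14 and Tap1 were picked with their values in view. The alternatives were a block for the replicate number, a covariate for the array run as read from the file numbers, probe sets averaged or taken singly, quantile normalization, median centring, removal of dim genes, weighting of arrays, a trended and robust eBayes, 1 array left out at a time, an adjusted p of 0.1 and linear group means. Leaving out both arrays numbered 2 was added after seeing the data.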

Additional observations from a re-analysis of the deposited data

How the results depend on the processing

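With 3 arrays per group, a 2-fold change lay inside the 95% interval of 13 of the 42 subunits, so a change of that size could not be told from 0 for these. Of all genes, 0 passed the adjusted p of 0.05, against 1 with median centring, 2 without dim genes, 5 with array weights and 32 without untreated replicate 3. Of 18 alternatives, 0 of those fitted with limma had a subunit past an adjusted p of 0.05, 0 also at an adjusted p of 0.1, and 2 subunits (Psmb3 and Psme1) passed the untested 1.5-fold limit on linear means, where 3.46% of all genes were past it as higher and 4.84% as lower. The number of subunits higher at an unadjusted p under 0.05 was 1 with the replicate number as a block (Psme1, unadjusted p = 0.0348, limma adjusted p = 0.673), and ran from 0 to 1 over the arrays left out (Psmd7 without untreated replicate 1). The number lower ran from 0 to 1 (Psma8 without untreated replicate 3). Deviations of same-numbered arrays correlated at 0.51, 0.01 and 0.10 across genes for numbers 1, 2 and 3, and not every array correlated best with its own number, so the numbers were not taken to pair the mice. With each array left out in turn, the median difference of the subunits ran from −0.10 to +0.14 and that of the immunoproteasome genes from −0.029 to +0.44. Of the 42 subunits 21 kept their direction in every alternative that gave them a value, while 59 of 670 values turned. The cause was not tested, and the counts are not given here for all genes. The turned differences were as follows. With the mean of probe sets they were Psma3 +0.14, Psmc1 +0.12, Psmd11 +0.022, Psme3 −0.064 and Psme4 −0.10. With quantile normalization they were Psma7 +0.029, Psmc1 +0.0068, Psmc2 +0.019 and Psmc3 +0.036. With median centring they were Psme4 −0.022. With array weights they were Psma3 +0.023, Psmc1 +0.13, Psmc3 +0.0049, Psmc5 +0.055 and Psmd6 +0.027. With linear group means they were Psmc5 +0.088. Without both arrays numbered 2 they were Psmb11 −0.012, Psmb3 −0.087, Psmb8 −0.075, Psmb9 −0.19, Psmc1 +0.084, Psmc4 +0.055, Psmc5 +0.23 and Psmd6 +0.29. Over the arrays left out the turned differences ran for Psmc4 from −0.40 to +0.062, for Psme4 from −0.18 to +0.26, for Psma3 from −0.32 to +0.14, for Psma7 from −0.33 to +0.21, for Psmb11 from −0.019 to +0.094, for Psmc1 from −0.44 to +0.34, for Psmc3 from −0.35 to +0.19, for Psmc5 from −0.66 to +0.49, for Psmd6 from −0.40 to +0.21, for Psmc2 from −0.15 to +0.055, for Psmd12 from −0.27 to +0.45, for Psmd8 from −0.065 to +0.54, for Psme3 from −0.12 to +0.53, for Psmb1 from −0.066 to +0.44, for Psmb8 from −0.029 to +0.35, for Psmb9 from −0.11 to +0.44, for Psmb4 from −0.23 to +0.13, for Psmd2 from −0.36 to +0.14, for Psmd4 from −0.35 to +0.14.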

Other observations

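The 2 genes whose symbols matched but that encode no subunit were also not called. Psmc3ip, a partner of an ATPase subunit known for its role in meiotic recombination, measured 7.36, 7.20 and 7.92 in treated and 7.51, 7.05 and 7.07 in untreated samples (+0.28, interval −0.29 to 0.85). Psme3ip1, a nuclear protein that binds the activator Psme3, measured 9.88, 9.38 and 10.37 against 9.70, 9.32 and 10.32 (+0.10, interval −0.70 to 0.89). The groups overlapped for both.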
